A study of Mus musculus with 6 samples.

Results

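Genes that mark astrocytes, or that developing astrocytes share with radial glia, were followed in green fluorescent upper-layer neurons of the mouse cortex at postnatal day 5 (P5) and postnatal day 3 (P3). The 41 genes were taken by their symbols from a table of 22544 genes, and all 41 were found and had been tested there. The 6 samples were 3 biological replicates at P5 and 3 at P3, all from brain of Swiss Webster mice kept under ordinary husbandry, and the labels name no treatment apart from age. Per the labels, neurons carrying green fluorescent protein (GFP) were collected by fluorescence-activated cell sorting. The sources used here do not say how GFP was placed in the neurons or whether animals were pooled.

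Astrocytes are the glial cells that take up glutamate and potassium, couple to each other through gap junctions, wrap blood vessels with endfeet and secrete factors that act on synapses. In the cortex they arise from radial glia around birth and then divide locally and mature over the first postnatal weeks. Genes such as Fabp7 and Vim are therefore already on in radial glia, whereas Gfap, Aqp4 and Gjb6 belong to the more mature cell. The sorted population was defined as neuronal, and whether these transcripts came from astrocytes in the sort or from the neurons themselves was not tested.

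Expression is given as FPKM, a fragment density corrected for transcript length and library size, so that genes of different length can be compared. The authors' deposited table holds 1 pooled value per age and no value per replicate, so each value below stands for 3 replicates and replicates cannot be set side by side. Ratios divide P5 by P3 and are given as log2 values, and their standard errors (SE) and 95% intervals were derived from the test statistic of that table. The number of fragments behind each value is unknown. Upper-layer neuron markers were detected at both ages: all 14 looked up were tested and none was listed at 0. Their median was 20.7 FPKM at P5 and 27.4 at P3. The 40 astrocyte genes above 0 at both ages had medians of 67.4 FPKM at P5 and 29.8 at P3. The purity of the sort was not tested.

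Transcripts of the 4 genes taken here as astrocyte markers were present at both ages and had higher FPKM at P5. Gfap, the intermediate filament of astrocytes (mm9 chromosome 11, 102748650 to 102758514), had 79.8 FPKM at P5 and 17.2 at P3. Aqp4, the water channel of astrocyte endfeet, had 97.7 FPKM at P5 and 26.8 at P3. Gja1, which encodes the gap junction protein connexin 43, had 717 FPKM at P5 and 362 at P3. Apoe, the main lipid carrier of the brain (mm9 chromosome 7, 20281593 to 20284515), had 498 FPKM at P5 and 64.9 at P3. Summed over these 4 genes, the level was 1393 FPKM at P5 and 471 at P3, a 2.96-fold higher value at P5. In bulk RNA, more astrocytes in the sort and more RNA of these genes per cell cannot be told apart.

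None of the 41 genes passed the authors' Cuffdiff test at q = 0.05, and that test called 0% of the 12865 genes it covered. At an unadjusted p under 0.05 there were 3 of the 41, Ptgds, Gjb6 and Apoe, all with higher FPKM at P5. They make 7.5% of the 40 astrocyte genes with FPKM above 0 at both ages, against 0.585% of all 12313 such genes that met the same limit on the higher side. FPKM was higher at P5 for 29 of the 40 genes and lower for 11, so 72.5% were higher, against 55.6% of all genes. A value at least 2-fold higher at P5 was found for 15 of the 40 (37.5%, against 23.9% of all genes), and one at least 2-fold lower for 0 of the 40, against 10% of all genes. Gja1 and Acsbg1 were just short of 2-fold, each 1.98-fold higher at P5. The median log2 ratio of the 40 genes was 0.66, beside 0.13 over all tested genes, and single ratios ran between -0.65 for Thbs1 and 6.75 for Gjb6. The 95% interval spanned 0 for 37 of the 40 genes. The other 3 intervals ran over 0.78 to 7.49 for Ptgds, 0.43 to 13.1 for Gjb6 and 0.001 to 5.88 for Apoe. The median SE was 1.17 log2 units and the lowest 0.89, so a 2-fold difference in a single gene was not detectable by the deposited test.

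**Figure D1:**
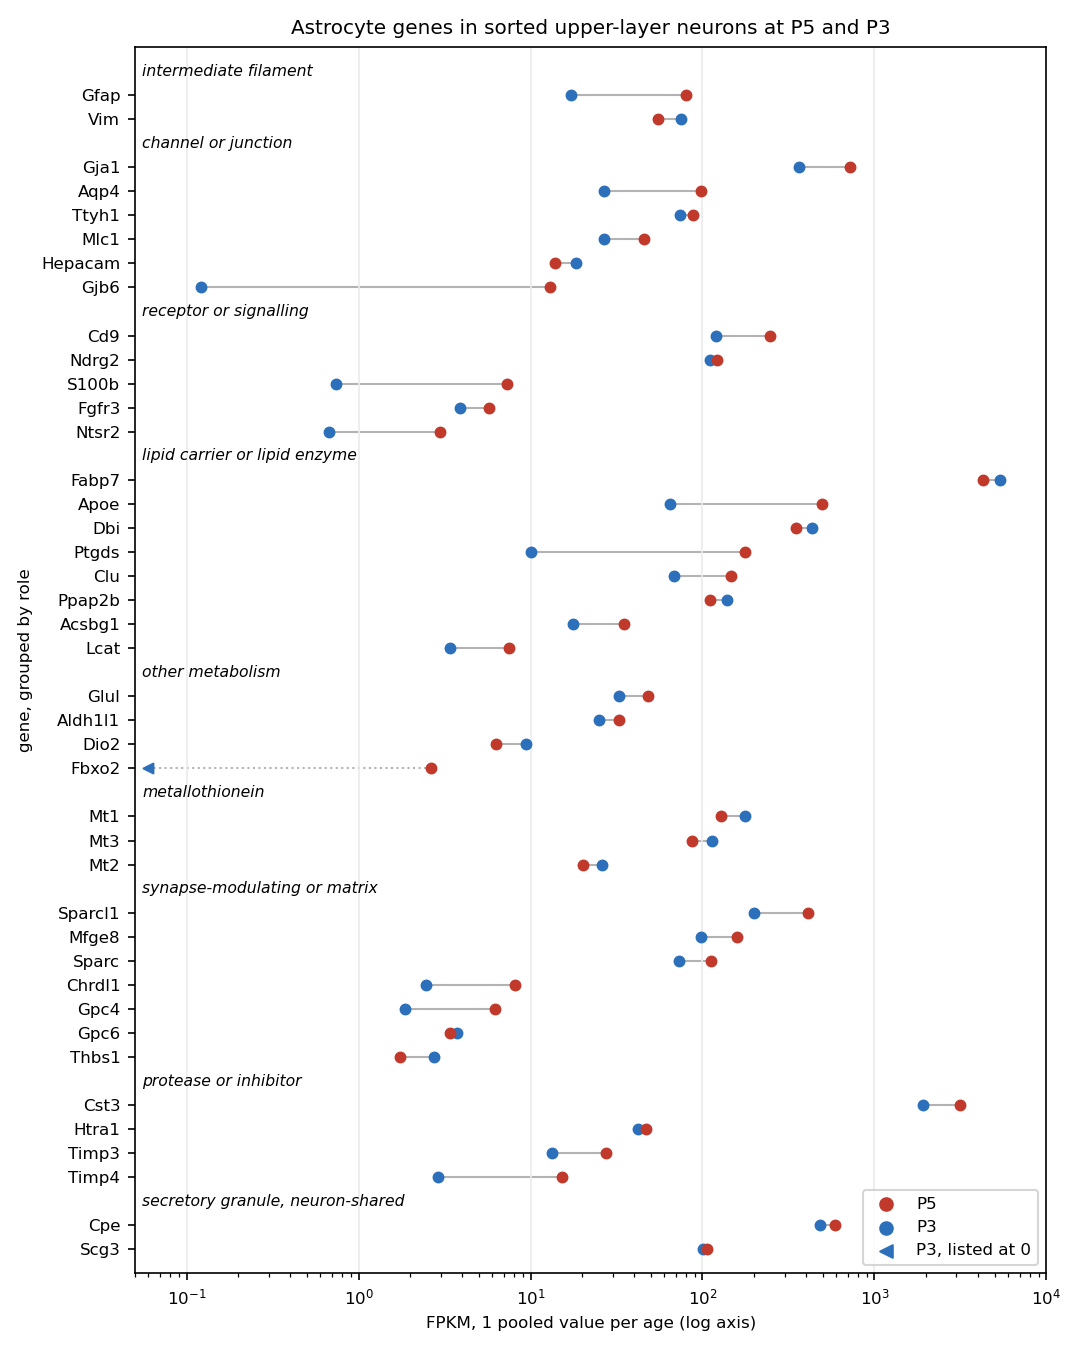
FPKM of the 41 astrocyte genes at P5 (red) and P3 (blue) on a log axis, 1 pooled value per age, grouped by role and sorted by the P5 value. Fabp7 and Cst3 lie above all other genes drawn at both ages, and Gjb6 and Ptgds have the longest solid lines. Fbxo2 was listed at 0 at P3 (triangle, placed arbitrarily), so the length of its dotted line has no meaning.

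Both intermediate filament genes were expressed, and their order differed between the ages. Vim, the filament of radial glia and of immature astrocytes, had 55.0 FPKM at P5 and 74.8 at P3, a log2 ratio of -0.45 (SE 0.89). Gfap, which takes over in mature cells, had a log2 ratio of 2.21 (SE 1.30, 95% interval -0.34 to 4.76). Within each age, Gfap stood at 1.45 times the level of Vim at P5 and at 0.230 times its level at P3. The intervals of both ratios spanned 0, and vimentin is also made by endothelial cells.

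Among channel, junction and membrane proteins, 5 of 6 genes had higher FPKM at P5, with a median log2 ratio of 0.88. Beside this and the other counts by role, 55.6% of all genes were higher at P5. Gjb6 encodes connexin 30, the second astrocyte connexin, which appears later than connexin 43 (mm9 chromosome 14, 57742140 to 57752414). It had 13.0 FPKM at P5 and 0.121 at P3, with a log2 ratio of 6.75 (SE 3.22) and an unadjusted p of 0.036 in the authors' deposited table. This is the highest ratio of the 40 and rests on a value near 0 at P3. The more abundant Gja1 had a log2 ratio of 0.99 (SE 2.28), so that Gja1 stood at 55.1 times the level of Gjb6 at P5 and at 2999 times its level at P3. Aqp4 had a log2 ratio of 1.87 (SE 1.17, 95% interval -0.43 to 4.16). Mlc1, a membrane protein of astrocyte endfeet, had 45.8 FPKM at P5 and 26.8 at P3. Its partner Hepacam, also called GlialCAM, went the other way with 13.8 FPKM at P5 and 18.4 at P3. Ttyh1, a membrane protein that radial glia share, was nearly level at 87.5 FPKM at P5 and 74.2 at P3. The deposited locus of Ttyh1 overlaps 2 other genes of the table, whose reads may be mixed with its own where strand was not recorded.

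All 5 receptor and signalling genes had higher FPKM at P5, with a median log2 ratio of 1.03. S100b, a calcium-binding protein that oligodendrocyte lineage cells also make, had 7.29 FPKM at P5 and 0.735 at P3 (log2 ratio 3.31, SE 2.33). Ntsr2, a neurotensin receptor of astrocytes, had 2.96 FPKM at P5 and 0.670 at P3. Both lay below 1 FPKM at P3. Cd9, a tetraspanin of radial glia and of oligodendrocyte precursors, had 246 FPKM at P5 and 120 at P3. Fgfr3, the fibroblast growth factor receptor of astrocyte precursors, had 5.76 FPKM at P5 and 3.89 at P3. Ndrg2, an abundant cytoplasmic protein of astrocytes, was at 122 FPKM at P5 and 111 at P3, a log2 ratio of 0.13 (SE 1.15).

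Lipid carriers and lipid enzymes held both the most abundant gene of the 41 and a pair of those with the lowest p. Fabp7, the brain fatty acid-binding protein of radial glia (mm9 chromosome 10, 57504729 to 57508256), had 4272 FPKM at P5 and 5388 at P3. That placed it at rank 2 of the 22544 genes at both ages. Dbi, which encodes an acyl-CoA-binding protein, shared its direction with 349 FPKM at P5 and 434 at P3, and so did the lipid phosphatase gene Ppap2b, now named Plpp3, with 110 FPKM at P5 and 138 at P3. The other 5 genes of the group were higher at P5. Ptgds, prostaglandin D2 synthase (mm9 chromosome 2, 25322232 to 25325269), had 176 FPKM at P5 and 10.0 at P3, with a log2 ratio of 4.13 (SE 1.71) and an unadjusted p of 0.016 in the authors' deposited table. Cells of the meninges and oligodendrocytes also express Ptgds. Apoe had a log2 ratio of 2.94 (SE 1.50) and an unadjusted p of 0.0499 in the authors' deposited table, which is at the edge of the limit. Microglia also make Apoe. Clu, a secreted apolipoprotein, had 146 FPKM at P5 and 68.0 at P3. Apoe was thus at 3.40 times the level of Clu at P5 and at 0.955 times its level at P3. Acsbg1, a fatty acyl-CoA synthetase, had 34.8 FPKM at P5 and 17.6 at P3, and Lcat, which esterifies cholesterol on lipoproteins, had 7.53 at P5 and 3.40 at P3.

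Of the remaining metabolic genes, 2 of the 3 above 0 at both ages were higher at P5. Glul, the glutamine synthetase that converts glutamate taken up from synapses, had 48.0 FPKM at P5 and 32.7 at P3. Aldh1l1, a folate enzyme widely used as a marker of all astrocytes, had 32.6 FPKM at P5 and 25.1 at P3 (log2 ratio 0.38, SE 0.96). Dio2, the deiodinase that makes active thyroid hormone for the brain, was lower at P5 with 6.33 FPKM, against 9.45 at P3. Fbxo2, a ubiquitin ligase subunit that binds glycoproteins, had 2.62 FPKM at P5 and was listed at 0 at P3, with an unadjusted p of 0.101 in the authors' deposited table. No ratio is given for it, since an exact 0 in such a table can be a failed estimate.

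The metallothioneins formed the only role group in which every gene had lower FPKM at P5. These small cysteine-rich proteins bind zinc and copper. Mt1 had 129 FPKM at P5 and 177 at P3, Mt2 had 20.2 at P5 and 26.1 at P3, and Mt3, the form best known from brain, had 87.2 at P5 and 114 at P3. Their log2 ratios lay within -0.46 to -0.37, with an SE of at least 1.08, so none differed between the ages beyond its error. The ratio of Mt1 to Mt2 was 6.36 at P5 and 6.76 at P3, and that of Mt1 to Mt3 was 1.48 at P5 and 1.55 at P3. The 3 genes stand in a row on mm9 chromosome 8 (Mt3 at 96676507 to 96678048, Mt2 at 96696518 to 96697467 and Mt1 at 96702989 to 96704227), and their neighbour Mt4 was listed at 0 at both ages and not tested. Mt1 and Mt2 are close paralogs, so fragments may have been divided between them in ways the table does not show.

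The start regions of the 3 metallothionein genes are given from RefSeq for build GRCm38.p6. Each holds 250 bases before and 50 after the annotated start, on the plus strand. Whether the 3 genes share control was not tested. Capitals mark matches to TGCACNC or TGCGCNC on either strand, the core to which the zinc-sensing factor MTF-1 is known to bind. The windows lie at chr8:94178839-94179138 for Mt1, chr8:94172368-94172667 for Mt2 and chr8:94152357-94152656 for Mt3.
Mt1: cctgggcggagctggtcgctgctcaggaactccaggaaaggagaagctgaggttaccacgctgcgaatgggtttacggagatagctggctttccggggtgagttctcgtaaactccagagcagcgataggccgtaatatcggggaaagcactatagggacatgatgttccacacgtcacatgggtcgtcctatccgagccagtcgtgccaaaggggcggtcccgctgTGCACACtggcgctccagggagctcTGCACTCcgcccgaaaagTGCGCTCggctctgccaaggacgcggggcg
Mt2: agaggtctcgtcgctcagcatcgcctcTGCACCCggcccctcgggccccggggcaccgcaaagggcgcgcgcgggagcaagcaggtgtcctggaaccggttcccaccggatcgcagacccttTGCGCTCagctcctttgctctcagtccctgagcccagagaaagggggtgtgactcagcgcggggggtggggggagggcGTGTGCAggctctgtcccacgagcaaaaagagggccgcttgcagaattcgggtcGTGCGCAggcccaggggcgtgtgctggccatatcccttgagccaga
Mt3: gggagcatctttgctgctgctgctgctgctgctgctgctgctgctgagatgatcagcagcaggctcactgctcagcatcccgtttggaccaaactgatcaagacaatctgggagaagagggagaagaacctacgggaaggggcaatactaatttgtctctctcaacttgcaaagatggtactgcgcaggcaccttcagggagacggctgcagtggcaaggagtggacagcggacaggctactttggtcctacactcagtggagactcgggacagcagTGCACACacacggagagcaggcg
The Mt1 window holds 3 matches, that of Mt2 holds 4 and that of Mt3 holds 1. No match overlaps another. At least 1 match is found in 25.7% of all 32851 windows of this length, at least 3 in 1.97% and at least 4 in 0.517%. A window was found for 34 of the 41 astrocyte genes, and 9 of these 34 had a match in some window. A match is a sequence feature only, and binding was not measured.

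Secreted and surface proteins that act on synapses or on the matrix were mostly higher at P5. Sparcl1, also called hevin, which promotes synapse formation, had 408 FPKM at P5 and 200 at P3 (log2 ratio 1.03, SE 1.36). Its relative Sparc, which counteracts hevin, had 112 FPKM at P5 and 73.0 at P3. Sparcl1 was the more abundant of the pair at both ages, at 3.63 times the level of Sparc at P5 and 2.74 times at P3. Chrdl1, a secreted factor linked to the maturation of synaptic AMPA receptors, had 8.16 FPKM at P5 and 2.47 at P3. The glypicans, which recruit AMPA receptors to young synapses, differed from each other: Gpc4 had 6.17 FPKM at P5 and 1.85 at P3, while Gpc6 had 3.38 at P5 and 3.72 at P3. Thbs1, the thrombospondin that induces early synapses, was the lowest of the 41 genes at P5, with 1.74 FPKM against 2.73 at P3. Mfge8, a bridging protein for the engulfment of cells and debris, had 159 FPKM at P5 and 98.4 at P3. The median log2 ratio of these 7 genes was 0.70, 5 were higher and 2 lower at P5, and all 7 intervals spanned 0.

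Proteases and protease inhibitors had higher FPKM at P5 in 4 of 4 genes, with a median log2 ratio of 0.88. Cst3, the secreted cysteine protease inhibitor cystatin C, had 3151 FPKM at P5 and 1908 at P3, rank 4 of all genes at P5 and rank 9 at P3. Microglia express it as well. Timp4, an inhibitor of metalloproteases, had 15.2 FPKM at P5 and 2.88 at P3, and Timp3 had 27.4 at P5 and 13.3 at P3. The deposited loci of both overlap a synapsin gene, Syn2 for Timp4 and Syn3 for Timp3. Reads of the synapsin genes may be mixed with those of Timp4 and Timp3 where strand was not recorded. These 2 were the only genes of the group at least 2-fold higher at P5. Htra1, a secreted serine protease, was nearly level at 47.2 FPKM at P5 and 42.0 at P3. Cpe and Scg3, which neurons also use to sort and process the content of secretory granules, were high and nearly level as well. Cpe had 590 FPKM at P5 and 482 at P3, and Scg3 had 106 at P5 and 101 at P3, the log2 ratio nearest 0 of the 40 genes (0.07, SE 1.02).

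By stage of the lineage, the genes of mature astrocytes had higher ratios than those shared with radial glia. The 18 mature genes above 0 at both ages had a median log2 ratio of 1.09, with 14 higher at P5, 4 lower and 10 at least 2-fold higher. The 16 early astrocyte genes had a median of 0.46, with 12 higher, 4 lower and 4 at least 2-fold higher. Of all tested genes above 0 at both ages, 55.6% were higher at P5 and 23.9% at least 2-fold higher. The 4 of 16 early genes are close to the second of these shares. The 6 genes shared with radial glia had a median of -0.04, with 3 higher and 3 lower, and that value was 0.15 as a mean. Their level was the highest of the classes at both ages, with a median of 203 FPKM at P5 and 109 at P3. These medians rest on few genes: Cd9, Mfge8 and Ttyh1 were higher at P5, while Fabp7, Dbi and Vim were lower. At both ages the median level lay between Mfge8 and Cd9. Summed, the 6 genes shared with radial glia had 5170 FPKM at P5 and 6189 at P3, most of it Fabp7. Early genes had medians of 67.6 FPKM at P5 and 53.5 at P3, and mature genes 27.5 at P5 and 17.4 at P3. The mature genes were thus the lowest of the classes at P3, and their errors were the widest, with a median SE of 1.39 against 1.14 for early genes and 1.13 for genes shared with radial glia. The difference between the classes was not tested. The table holds no value per replicate, and the classes were chosen with earlier results of these data known.

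**Figure D2:**
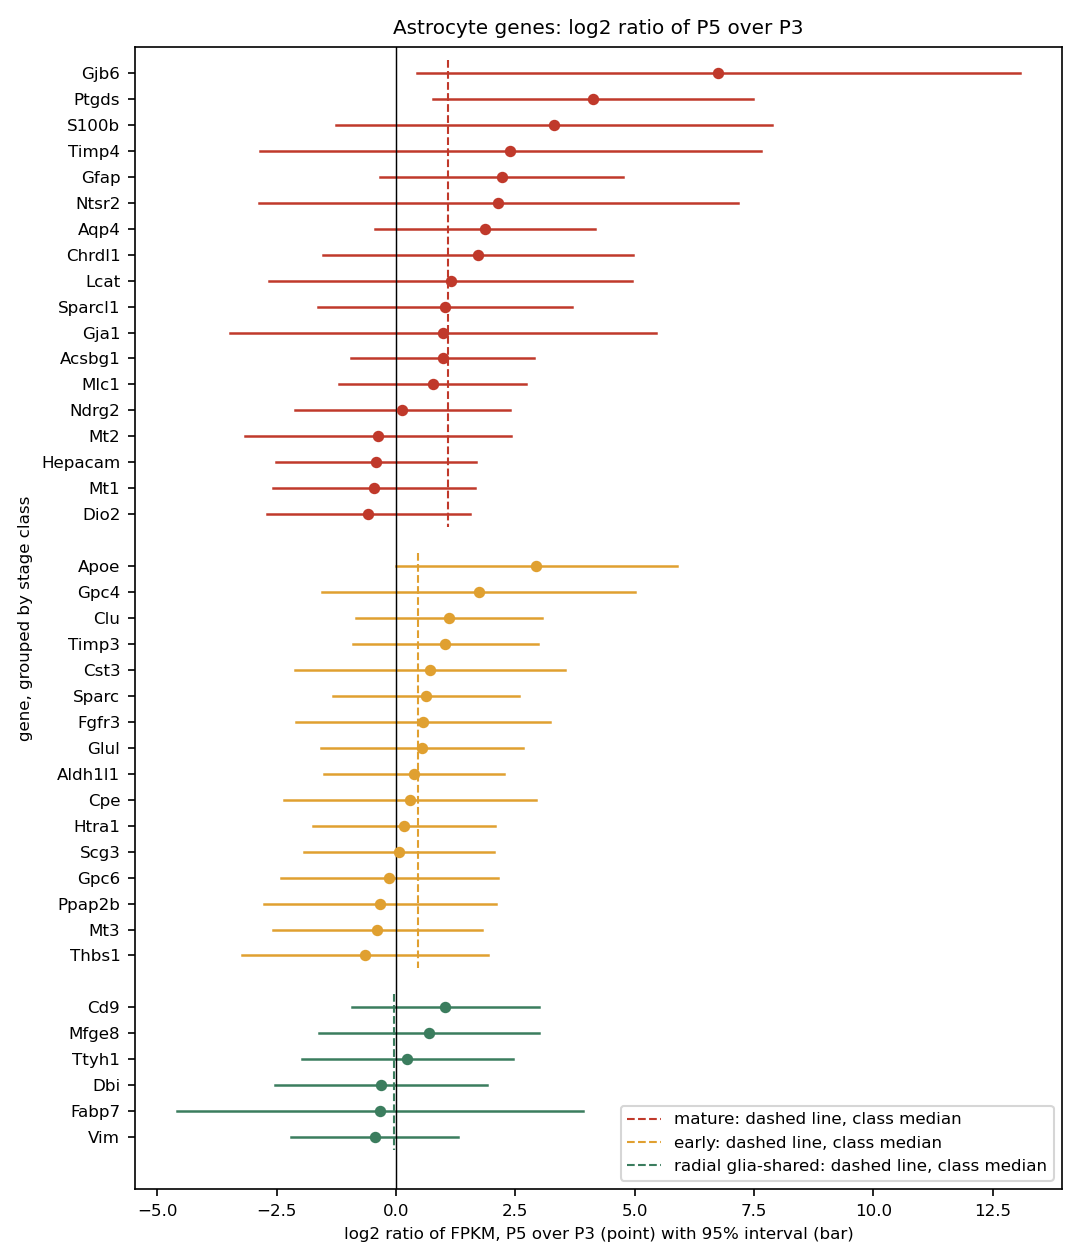
Log2 ratio of P5 over P3 for the 40 astrocyte genes above 0 at both ages, grouped by stage class and sorted within it. Points are ratios, bars are 95% intervals from the deposited statistic and dashed lines are class medians. The intervals of Gjb6, Ptgds and Apoe lie above 0 and the other 37 span it.

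In the summed RNA, Fabp7 and Cst3 weighed most. The 41 genes added up to 12050 FPKM at P5 and 10275 at P3, which was 4.09% of all FPKM of the table at P5 and 3.26% at P3. Without Fabp7 the sum was 7778 FPKM at P5 and 4887 at P3, a 1.59-fold higher value at P5. Fabp7 stood at 5.96 times the level of Gja1 at P5 and at 14.9 times its level at P3, and Apoe at 0.117 times the level of Fabp7 at P5 and at 0.0120 times at P3.

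**Figure D3:**
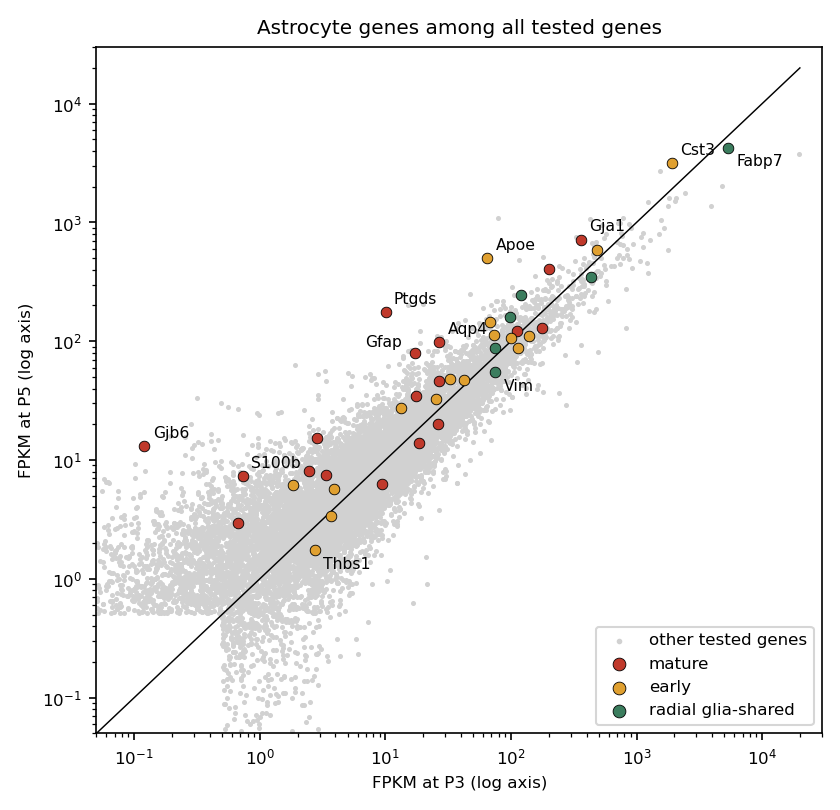
FPKM at P5 (vertical) against FPKM at P3 (horizontal) on log axes for all tested genes (grey) and the astrocyte genes by stage class. The diagonal marks equal values, and 234 genes below 0.05 FPKM at either age and genes at 0 are not drawn. Most mature genes (red) lie above the diagonal, and Fabp7 lies just below it.

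A second list of 48 astrocyte genes, none of them among the 41, had a median log2 ratio of 0.46. All 48 had been tested, 0 passed the test at q = 0.05, and 47 were above 0 at both ages, 35 of them higher at P5 and 12 lower. Beside the counts of this list and of the lists below, 55.6% of all genes were higher at P5. The most abundant genes of that list had log2 ratios between -0.61 and 0.85. The glutamate transporter gene Slc1a3 had 758 FPKM at P5 and 1088 at P3, the glycolytic enzyme gene Aldoc 773 at P5 and 767 at P3, and the endothelin receptor gene Ednrb 393 at P5 and 283 at P3. Pla2g7, a secreted phospholipase, had 434 FPKM at P5 and 240 at P3, and the transcription factor gene Nfia had 233 at P5 and 356 at P3. Those with the lowest p were all higher at P5. The receptor gene Gpr37l1 had 24.7 FPKM at P5 and 0.946 at P3, and the bone morphogenetic protein target Id3 had 250 at P5 and 47.6 at P3. The urea transporter gene Slc14a1 had 13.6 FPKM at P5 and 0.350 at P3, the zinc transporter family gene Slc39a12 had 12.2 at P5 and 2.14 at P3, and the receptor gene Bmpr1b had 6.89 at P5 and 1.996 at P3. In both lists, genes below 1 FPKM at P3 were among those with the highest ratios.

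Markers of other non-neuronal cells were also higher at P5 in the same sorts. The 17 microglia and macrophage markers summed to 229 FPKM at P5 and 51.7 at P3, with 14 of 14 tested genes above 0 at both ages higher at P5, a median log2 ratio of 4.46, and Itgam and Tmem119 listed at 0 at P3. Of these markers, Cd68 had 15.8 FPKM at P5 and 0.194 at P3. At P3, 12 of the 17 microglia and macrophage markers lay below 1 FPKM. The median SE of their ratios was 2.64, and 12 of the 14 intervals spanned 0. Oligodendrocyte lineage markers (15 genes) summed to 338 FPKM at P5 and 153 at P3, with 12 of 12 higher and a median of 1.96. Mag and Mog were listed at 0 at P3 and Opalin at both ages. For the oligodendrocyte lineage markers the median SE was 1.33, and 11 of the 12 intervals spanned 0. The 17 endothelial and mural markers summed to 972 FPKM at P5 and 920 at P3, of which Rgs5 made 905 at P5 and 911 at P3. Their median log2 ratio was 2.73, with 11 of 13 higher, and Abcb1a, Acta2 and Tek were listed at 0 at P3. Of these 17 markers, 13 lay below 1 FPKM at P3 and 8 at P5. The median SE was 2.63, and 11 of the 13 intervals spanned 0, so these medians rest largely on values near 0. The part of these cells in the astrocyte values was not tested. The 15 genes of the 41 that such cells or neurons are known to express, among them Apoe, Ptgds, Cst3 and S100b, were then left out. This choice was made after seeing the data. The median log2 ratio was 0.56, with 18 of the 25 genes above 0 at both ages higher at P5. With Fbxo2, the 26 genes left summed to 6515 FPKM at P5 and 7020 at P3, of which Fabp7 made 4272 and 5388.

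Radial glia and neural stem cell markers lay on the other side. Of 18 such genes, 17 were in the table and 15 were tested, 3 with higher and 12 with lower FPKM at P5, with a median log2 ratio of -0.48. They summed to 1293 FPKM at P5 and 1839 at P3, and Msi1 and Fam107a were listed at 0 at P3. Sox9, a transcription factor of radial glia and astrocytes, had 143 FPKM at P5 and 252 at P3, and Emx2 had 5.82 at P5 and 14.8 at P3. This list shares 4 genes with the second astrocyte list. Pan-neuronal genes had a median log2 ratio of 0.98 over 14 tested genes, close to that of mature astrocyte genes. Of these 14, 10 were higher and 4 lower at P5, 7 at least 2-fold higher and 2 at least 2-fold lower. Snap25 had 129 FPKM at P5 and 36.5 at P3. Upper-layer neuron markers had a median of 0.21, with 8 higher and 6 lower at P5, 2 at least 2-fold higher and 3 at least 2-fold lower. Among the lower ones, Pou3f3 had 21.3 FPKM at P5 and 66.1 at P3. No difference between lists was tested.

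**Figure D4:**
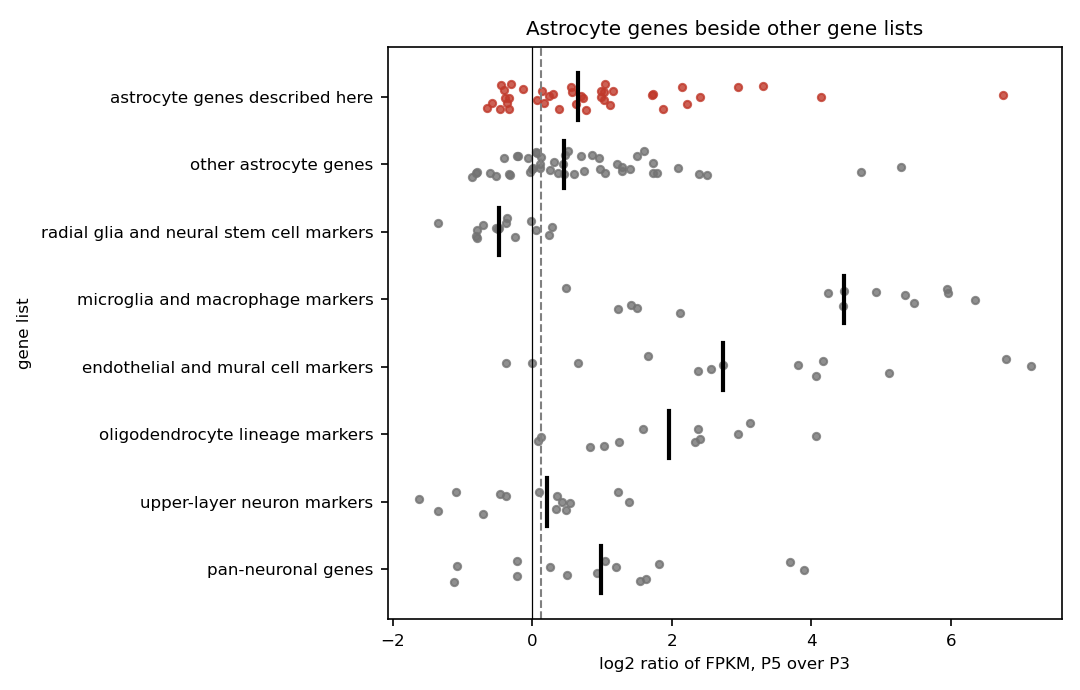
Log2 ratio of P5 over P3 for the 40 astrocyte genes above 0 at both ages (red) and for the tested genes of 7 other lists (grey). Points are genes, black bars are list medians and the dashed line is the median of 0.13 over all tested genes. Astrocyte genes spread around 0.66, below the medians of microglia, vessel and oligodendrocyte markers and below the 0.98 of pan-neuronal genes. The median FPKM at P3 was 0.480 for the microglia genes drawn and 0.398 for the vessel genes.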

How the data were processed

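RNA was sequenced from sorted neurons of 6 samples, 3 at P5 and 3 at P3, with groups taken from the titles. TopHat, Cuffdiff 2.02 and build mm9 are named in the submitters' processing notes, without role or order. The sources used here give no annotation, strandedness or read number. The deposited table gives FPKM, 1 value per age that pools the replicates, per the file headers. The deposited p-values and q-values are the authors' Cuffdiff results for 12865 genes with status OK. The deposited log2 ratio and test statistic were handled as scores, because they hold a placeholder where an age is at 0. In the 12313 tested genes with 2 values above 0, it was checked that the deposited p-value matched the two-sided normal tail of the statistic to within 2.8e-06. In all 12313 the signs of statistic and log2 ratio were opposite. The SE was therefore taken from their absolute values, as ratio over statistic, and intervals are nominal 95% intervals. Of all 12313 intervals, 12218 spanned 0, and the statistic had a robust spread of 0.66. The SEs and intervals may thus be wider than the true error, and their coverage in these data was not tested. Since only pooled values were at hand, no test across replicates could be made, and spread enters only through the deposited statistic. Loci are printed counted from 1 on mm9, with deposited starts read as counted from 0. Read so, 6526 of 16788 loci that overlap no other have the length of the RefSeq gene, against 432 if read as counted from 1. RefSeq windows of GRCm38.p6 were used for sequence only.

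The genes, their stage and role classes and the other lists were chosen with earlier results of these data known. All 41 genes are named whatever their values. Of each other list the rule names the 2 genes with the highest mean FPKM and the 2 with the lowest p at 5 FPKM or more at either age (5 and 5 for the second astrocyte list). Not all of these are printed here. Alternatives were other adjustments and thresholds, pseudocounts of 0.1 and 1 FPKM, minimum levels of 1 and 5 FPKM, centring, untested genes, overlapping loci and means. Interval and adjustment code was tested on simulated data. Python 3.11.15, pandas 2.3.3 and SciPy 1.17.1 were used.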

Additional observations from a re-analysis of the deposited data

How the results depend on the processing

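No paired analysis was possible because the table holds 1 pooled value per age, and for the same reason no replicate could be left out. Under Bonferroni adjustment, q at 0.1 and adjustment over genes of at least 1 FPKM at either age (lowest q 0.999988), 0 of the 41 astrocyte genes were called. With the statistic divided by its robust spread of 0.66, 0 of the 40 above 0 at both ages were called (lowest q 0.179). At an unadjusted p under 0.05 there were 3 of the 41. The count of genes higher at P5 was 29 of 40 in the main setting and ranged between 26 and 30 over the alternatives. The number of genes counted changed as well: it was 26 of 37 without overlapping loci and 30 of 41 with either pseudocount. The median log2 ratio of the 41 ranged between 0.56 and 0.93: it was 0.93 as a mean and 0.88 without genes shared with radial glia and secretory granule genes. It was 0.56 without genes that other cell types express and also 0.56 without Ptgds, Gjb6 and Apoe, both chosen after seeing the data. As means, the value was 0.15 for genes shared with radial glia, which turned its sign, 1.54 for mature genes and 0.73 for the second astrocyte list. Over the other alternatives the sign of these medians was kept. The cause of these shifts was not tested. Depth is unknown, so the precision of low values such as Gjb6, S100b and Ntsr2 at P3 cannot be given.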

Other observations

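Further genes of the second astrocyte list are given here, singled out after their values were seen. Among the nuclear factors that drive the switch of progenitors to astrocytes, Nfia had 233 FPKM at P5 and 356 at P3. Nfib had 109 FPKM at P5 and 144 at P3, and Nfix had 75.9 at P5 and 87.2 at P3. Sox9 had 143 FPKM at P5 and 252 at P3, Rfx4 had 8.92 at P5 and 11.2 at P3, and Id4 had 31.6 at P5 and 39.8 at P3. Id3 and Hes5, also transcriptional regulators, had higher values at P5, Id3 with a log2 ratio of 2.40 (SE 1.10) and Hes5 with 13.8 FPKM at P5 and 9.12 at P3 (log2 ratio 0.60, SE 1.31). Slc1a2, the glutamate transporter of mature astrocytes, had 47.3 FPKM at P5 and 24.3 at P3, while Slc1a3, which radial glia also use, had 758 at P5 and 1088 at P3. The sodium pump subunit gene Atp1b2 had 75.9 FPKM at P5 and 31.2 at P3, and the bicarbonate cotransporter gene Slc4a4 had 30.01 at P5 and 11.3 at P3. The interval of each ratio except that of Id3 spanned 0.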
